A study of Homo sapiens with 6 samples.

Results

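Glycolysis and hypoxia response genes were followed in the RNA of H1 cells, an established human embryonic stem cell line, across 3 DICER1 genotypes. The members were chosen by symbol, with earlier results of these data known. Of the 38 genes listed, 36 had a row among the 16199 genes of the table. LDHA and SLC16A1 are not analysed here. The 36 genes were divided by role into 16 glycolytic enzymes, 3 glycolysis switches (2 PFKFB enzymes and PDK1), 3 transporters, 4 oxygen sensing genes and 10 other targets of the hypoxia-inducible factor (HIF). All 36 passed the low-count filter of the test, as did every gene of the table.

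The 6 libraries were wild type 1 and 2 (labelled wild type), hemizygous 1 and 2 (the labels' term for cells with the S1344L change in DICER1, without a description of the other allele) and homozygous 1 and 2 (S1344L homozygous). DICER1 is the endonuclease that cuts microRNA precursors into mature microRNAs, and the study concerns what this single amino acid change does to its function. All 3 genotypes share the H1 background and carry no other labelled treatment. The labels do not say how many edited clones were used, whether the 2 libraries of a genotype came from separate cultures, how dense the cultures were or which oxygen level they were kept at, so a p-value here reflects only how these libraries vary, which may be technical.

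Glycolysis splits glucose into pyruvate in the cytosol, and pluripotent stem cells are known for using it heavily even when oxygen is present. The same genes are partly under the control of HIF1, a pair of HIF1A and ARNT that binds short ACGTG and GCGTG motifs. In normal oxygen the EGLN prolyl hydroxylases modify HIF1A, the VHL complex marks it for degradation and its targets stay low. In low oxygen HIF1A protein accumulates, mostly without a change in its mRNA, and activates genes for glucose uptake, glycolysis, mitophagy, angiogenesis and collagen hydroxylation.

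Library totals ran from 38164848 to 52924532 counts. Expression is given as CPM, counts per 1e+06 after scaling of the libraries by TMM, and differences as log2 fold changes from edgeR's quasi-likelihood test or, between single libraries, as differences of log2(CPM + 0.5). All 11 pluripotency markers listed were in the table and summed to between 10234 and 12139 CPM in the 6 libraries. Of 37 defining markers of other cell types, 15 had a row, and blood had none of 3. The neural marker FABP7 had 5.62 and 8.15 CPM in homozygous 1 and 2 and 2.99 CPM in both wild-type libraries, with an unadjusted edgeR p of 0.0044. ZIC1, also neural, averaged 28.1 CPM in the homozygous libraries against 17.1 CPM in wild-type ones, with an unadjusted edgeR p of 0.0086, and 41.0 and 58.9 CPM in hemizygous 1 and 2. None of these differences passed after adjustment. DCX, a further neural marker, had 4.01 and 4.65 CPM in homozygous 1 and 2, 5.58 CPM in both hemizygous libraries and 3.28 and 3.30 CPM in wild type. NES, the last of the 4 neural markers in the table, went the other way in homozygous cells. It had 386 and 371 CPM in homozygous 1 and 2 and 472 and 429 CPM in wild type. The 4 summed to 424 and 412 CPM in homozygous 1 and 2, 566 and 471 CPM in hemizygous and 496 and 452 CPM in wild type, most of it NES. The endothelial marker TEK had 67.7 and 83.3 CPM in wild type 1 and hemizygous 1, 27.1 CPM in homozygous 1 and 21.2 to 27.2 CPM in the libraries numbered 2. The 5 of 8 fibroblast markers in the table summed to 631 and 677 CPM in homozygous 1 and 2, below the wild-type sums of 863 and 789.6 CPM. In hemizygous 1 and 2 they summed to 826 and 706 CPM, so hemizygous 2 was also below both wild-type libraries. DICER1 mRNA was 148 ± 30.6 CPM in wild type, 107 ± 15.6 CPM in hemizygous and 123 ± 7.80 CPM in homozygous cells (SD, n = 2), which does not check a single amino acid change.

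The pattern across the members was a higher level in homozygous 1, without a like shift in homozygous 2. In 28 of 36 members homozygous 1 was the highest of the 6 libraries, against 14.7% of all genes. In 12 of 36 members it exceeded each of the other 5 libraries by more than 0.5 on the log2 scale, a distance that 46 genes of the table reached (0.284%) and that was set after these values were seen. The members themselves were chosen with earlier results of these data known, so neither comparison with all genes is a test. The 12 members were HK2, PGK1, ALDOA, PFKFB4, SLC2A1, SLC16A3, EGLN1, DDIT4, BNIP3, KDM3A, P4HA1 and ANKRD37. ALDOA was the nearest inside this limit, at 0.59, and PFKFB3 and ENO1 the nearest outside it, both at 0.47. Homozygous 2 was not raised with it. Homozygous 2 was above wild type 2 in 12 of 36 members (33.3%, beside 48.5% of all genes) and above hemizygous 2 in 10 of 36 (27.8%, beside 46.4% of all genes), with median differences of -0.05 and -0.10 on the log2 scale. Homozygous 1 was above wild type 1 in 33 of 36, beside 49.8% of all genes. Homozygous 2 was the lowest of the 6 libraries in 13 of 36 members, where it was lowest in 22.4% of all genes, and hemizygous 1 was also the lowest in 13 of 36. As the libraries are bulk RNA, more RNA of these genes in every cell and more cells with a high level cannot be told apart.

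**Figure D1:**
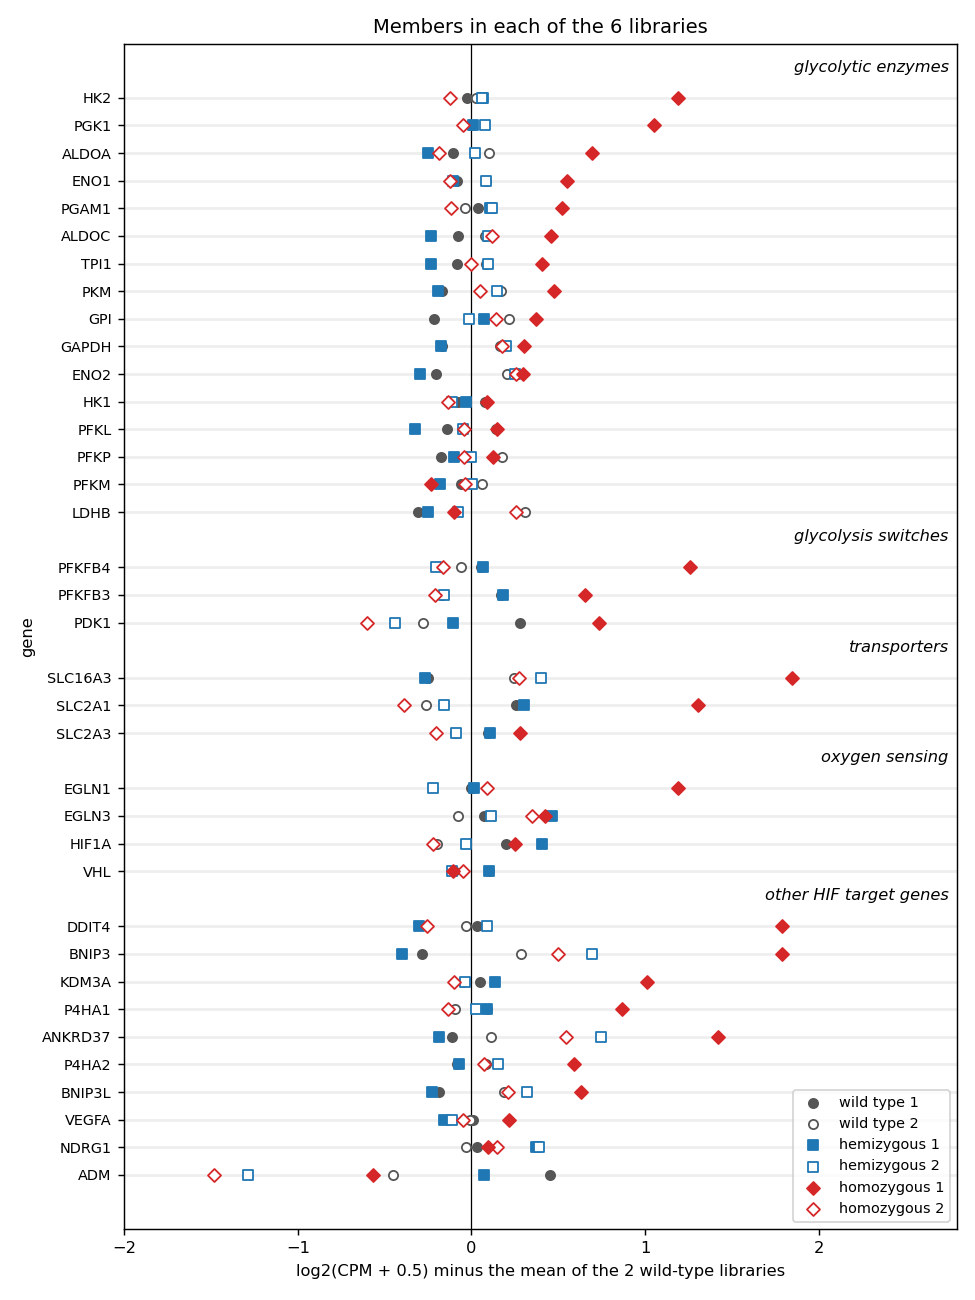
Each row is a member, grouped by role, and each point is a library; the x axis is log2(CPM + 0.5) minus the mean of the 2 wild-type libraries. The filled red diamonds of homozygous 1 lie to the right of the other 5 libraries in 28 of 36 rows, and the open red diamonds of homozygous 2 are the leftmost points in 13 of 36 rows, furthest from the wild-type mean for ADM.

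No member passed the edgeR test in any comparison. At an adjusted p under 0.05 the test called 0.0% of all genes in hemizygous against wild type, 0.0% in homozygous against wild type and 0.0% in homozygous against hemizygous, over 16199 genes each. The lowest adjusted p of a member was 0.9998 for homozygous against wild type. At an unadjusted p under 0.05, edgeR placed 3 members higher in homozygous than in wild type (SLC16A3, ANKRD37 and BNIP3), where 1.19% of all genes were higher, and 0 members lower, where 1.5% were lower. Ranges that did not overlap between homozygous and wild type were found higher for 10 of 36 members (14.2% of all genes) and lower for ADM alone (13.6%).

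The fold changes of homozygous against wild type were above 0 in 32 of 36 members, with a median of 0.27 (all genes -0.003). Without homozygous 1 they were above 0 in 14 of 36 with a median of -0.05, and without homozygous 2 in 32 of 36 with a median of 0.49. Against hemizygous the numbers were 31 of 36 and 0.28, and without homozygous 1 they were 18 of 36 and -0.02. In hemizygous against wild type 18 of 36 fold changes were above 0, with a median of 0.001 and a range from -0.54 (ADM) to 0.62 (ANKRD37).

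Glycolytic enzymes came first in abundance. Per kilobase of annotated exon, GAPDH, which oxidises glyceraldehyde 3-phosphate, had the highest level of the 36 members in wild type, at 1070 ± 174 CPM per kb (SD, n = 2), followed by ENO1 (enolase) at 238 ± 19.1 and TPI1 (triosephosphate isomerase) at 199 ± 15.9 CPM per kb. The ranges of ENO1 and TPI1 did not overlap, and neither did those of GAPDH and ENO1. Glucose transporter SLC2A3 came next at 133 ± 12.1 CPM per kb, overlapping with pyruvate kinase PKM at 118 ± 19.5. Members at the bottom were ANKRD37 at 0.23 ± 0.05, EGLN1 at 0.36 ± 0.00 and NDRG1 at 0.52 ± 0.02 CPM per kb. The 16 enzymes took 1.06% of all counts in homozygous 1 and 0.857% in homozygous 2, beside 0.724% and 0.899% in the wild-type pair and 0.708% and 0.897% in the hemizygous pair.

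HK2, the hexokinase that traps glucose in the cell and the inducible partner of HK1, showed the clearest difference among the enzymes. It had 103.7 and 107.4 CPM in wild type 1 and 2, 110.6 and 110.2 CPM in hemizygous 1 and 2, and 241.8 and 97.0 CPM in homozygous 1 and 2. Homozygous 1 was 2.29 times the mean of the other 5 libraries, and homozygous 2 was the lowest of the 6. The fold change of homozygous against wild type was 0.68 ± 0.38 (SE), and without homozygous 1 it was -0.12. HK1, the housekeeping hexokinase, ranged from 445.7 to 520.7 CPM, with homozygous 1 the highest by 0.01 on the log2 scale. Per exon length, HK2 made up 32.5% of the sum of HK1 and HK2 in homozygous 1 and 17.7% to 20.1% in the other 5 libraries.

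PGK1, phosphoglycerate kinase, which makes the first ATP of the pathway's payoff phase, had 431.3 and 432.7 CPM in wild type 1 and 2, 434.4 and 457.0 CPM in hemizygous 1 and 2, and 895.8 and 418.3 CPM in homozygous 1 and 2. The 5 libraries other than homozygous 1 lay between 418.3 and 457.0 CPM. The fold change of homozygous against wild type was 0.61 ± 0.32 (SE), and -0.05 without homozygous 1. ALDOA, an aldolase, followed at 16.2 and 18.8 CPM in wild type, 14.6 and 17.8 CPM in hemizygous, and 28.6 and 15.3 CPM in homozygous 1 and 2. Its count is uncertain, since 53.5% of its exon bases are shared with other annotated genes and the libraries carry no strand.

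The other enzymes differed less, and several of them varied with the replicate number. ENO1 had 1182 and 1325 CPM in wild type, 1162 and 1327 CPM in hemizygous, and 1835 and 1151 CPM in homozygous 1 and 2. Homozygous 1 was also the highest library for PGAM1 (phosphoglycerate mutase), ALDOC (a second aldolase), PKM, TPI1 and GPI (glucose-6-phosphate isomerase), by 0.40, 0.34, 0.31, 0.31 and 0.16 on the log2 scale over the next library. GAPDH, ENO2, PFKL and HK1 were highest there by 0.10 or less. For GAPDH, with 3908 CPM in homozygous 1, homozygous 2, hemizygous 2 and wild type 2 had 3580, 3642 and 3558 CPM, and wild type 1 and hemizygous 1 had 2824 and 2806 CPM. This gene has 62 named pseudogenes, so its count is also uncertain.

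The 3 subunits of phosphofructokinase, the main control point of the pathway, and lactate dehydrogenase LDHB did not follow. PFKM was lowest in homozygous 1, at 94.7 CPM against 97.9 to 116.2 CPM in the other libraries. PFKP and LDHB were not highest in homozygous 1, and PFKL was highest there by only 0.01. LDHB, whose exons share 33.4% of their bases with another gene, had 21.3 and 32.9 CPM in wild type and 24.7 and 31.8 CPM in homozygous 1 and 2. Over the 16 enzymes the median of homozygous 1 minus wild type 1 was 0.49 and that of homozygous 2 minus wild type 2 was -0.09. The replicate number had its own difference in the same genes: wild type 1 was below wild type 2 by a median of -0.19 and hemizygous 1 below hemizygous 2 by -0.19, whereas homozygous 1 was above homozygous 2 by 0.29.

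Switches set the direction of glucose carbon. PFKFB4, a bifunctional enzyme that makes and removes the phosphofructokinase activator fructose 2,6-bisphosphate, had 12.8 and 11.7 CPM in wild type 1 and 2, 12.8 and 10.6 CPM in hemizygous 1 and 2, and 30.0 and 10.9 CPM in homozygous 1 and 2. Homozygous 2 lay inside the range of the other genotypes and homozygous 1 far above it. The fold change of homozygous against wild type was 0.74 ± 0.43 (SE). PFKFB3, its relative with the stronger kinase activity, was at 60.8 CPM in homozygous 1, at 43.4 and 43.6 CPM in the libraries numbered 1 of wild type and hemizygous, and at 33.2 to 34.4 CPM in the 3 libraries numbered 2. PDK1, the kinase that switches off pyruvate dehydrogenase, had 66.1 and 44.8 CPM in wild type, 50.6 and 40.0 CPM in hemizygous, and 90.8 and 35.7 CPM in homozygous 1 and 2. In each genotype the library numbered 1 was the higher one for PFKFB3 and PDK1.

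Transporters carry glucose in and lactate out. SLC16A3, the lactate exporter MCT4 of strongly glycolytic cells, had 17.0 and 24.1 CPM in wild type 1 and 2, 16.7 and 26.9 CPM in hemizygous 1 and 2, and 74.1 and 24.5 CPM in homozygous 1 and 2. Homozygous 1 was 3.02 times homozygous 2, and homozygous 2 lay between wild type 2 and hemizygous 2. The fold change of homozygous against wild type was 1.27 ± 0.51 (SE), with an unadjusted edgeR p of 0.043 and an adjusted p of 0.9998. The difference from the same-numbered wild-type library was 2.10 for replicate 1 and 0.03 for replicate 2.

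SLC2A1, the glucose transporter GLUT1, had 164.3 and 114.6 CPM in wild type, 169.3 and 122.8 CPM in hemizygous, and 340.5 and 104.5 CPM in homozygous 1 and 2. In all 3 genotypes the library numbered 1 was the higher, and the gap was largest in the homozygous pair. SLC2A3, the high-affinity transporter GLUT3, differed little, from 711 CPM in homozygous 2 to 992 CPM in homozygous 1. Per exon length SLC2A1 made up 30.9% of the sum of both glucose transporters in homozygous 1, and 16.1% to 20.0% in the other libraries.

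Oxygen sensing genes were mixed. HIF1A mRNA had 297 and 226 CPM in wild type 1 and 2, 344 and 254 CPM in hemizygous 1 and 2, and 308 and 223 CPM in homozygous 1 and 2. Its order followed the replicate number and not the genotype, and homozygous 1 was below hemizygous 1. VHL, the recognition subunit of the ligase that marks HIF1A, had 87.0 and 75.7 CPM in wild type and 75.5 and 78.4 CPM in homozygous 1 and 2. EGLN1, the main HIF prolyl hydroxylase in normal oxygen, had 2.62 and 2.64 CPM in wild type, 2.66 and 2.18 CPM in hemizygous, and 6.65 and 2.83 CPM in homozygous 1 and 2. Both homozygous libraries lay above the other 4, by little for homozygous 2, at a low level for this gene.

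EGLN3, a hydroxylase that is itself a HIF target, did not show the split between the homozygous libraries. It had 24.8 and 22.3 CPM in wild type, 32.5 and 25.4 CPM in hemizygous, and 31.7 and 30.1 CPM in homozygous 1 and 2. Both homozygous libraries and both hemizygous libraries lay above both wild-type libraries. The fold change of homozygous against wild type was 0.39 ± 0.16 (SE), with an unadjusted edgeR p of 0.050 and an adjusted p of 0.9998. That of hemizygous against wild type was 0.30 ± 0.16 (SE), and neither passed.

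**Figure D2:**
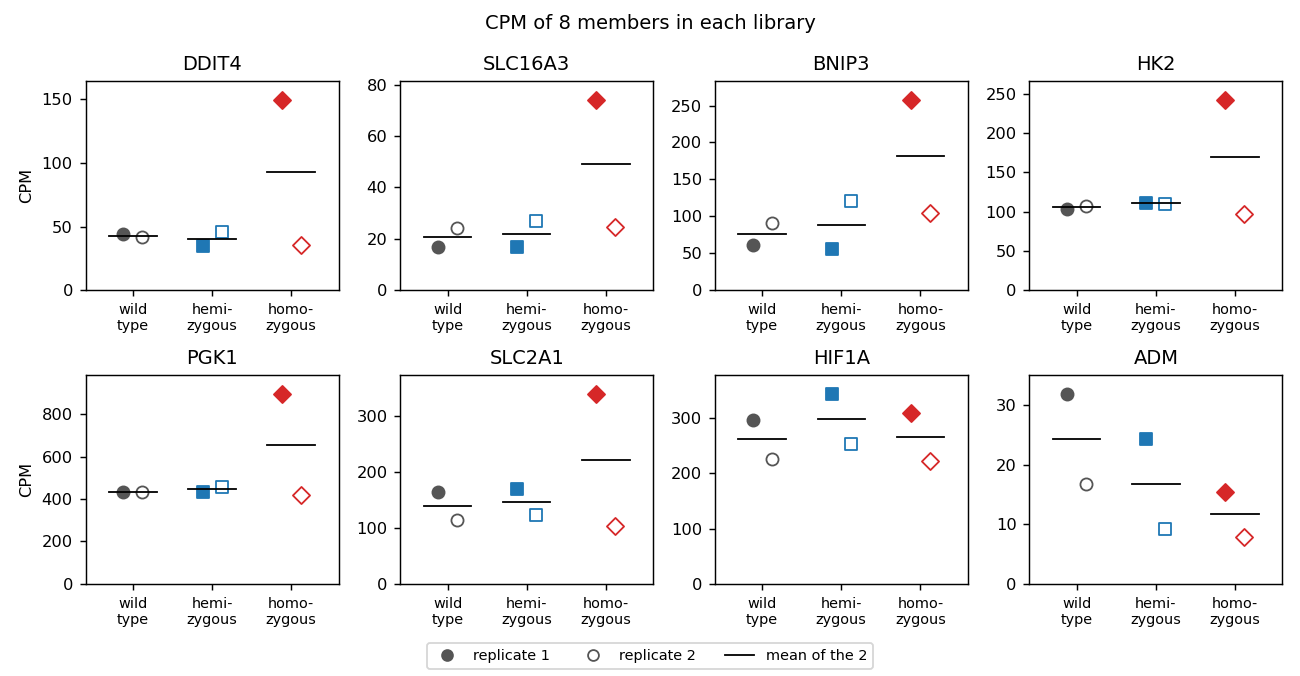
CPM of 8 members on linear axes from 0, by genotype on the x axis; filled points are replicate 1, open points replicate 2 and lines the mean of the 2. The point of homozygous 1 is the highest for DDIT4, SLC16A3, BNIP3, HK2, PGK1 and SLC2A1, at 149.5 CPM against 34.7 to 45.7 CPM for DDIT4, while HIF1A follows the replicate number and ADM is lower in homozygous than in wild type for both numbers.

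Among the other HIF targets DDIT4 stood furthest apart. DDIT4 (REDD1), which restrains the growth kinase complex mTORC1 under stress, had 43.9 and 42.0 CPM in wild type 1 and 2, 34.7 and 45.7 CPM in hemizygous 1 and 2, and 149.5 and 35.8 CPM in homozygous 1 and 2. Homozygous 1 was 4.17 times homozygous 2, while homozygous 2 was below both wild-type libraries. By its distance above the other 5 libraries DDIT4 was at rank 3 of all 16199 genes and SLC16A3 at rank 4. The fold change against wild type was 1.11 ± 0.57 (SE), and without homozygous 1 it was -0.26. An antisense gene shares 41.2% of the exon bases of DDIT4, and the unstranded reads of both cannot be told apart.

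BNIP3, a receptor that directs mitochondria to autophagy, had 60.8 and 90.3 CPM in wild type, 55.9 and 120.1 CPM in hemizygous, and 257.4 and 104.8 CPM in homozygous 1 and 2. It was lower in the library numbered 1 in wild type and hemizygous cells and higher in it in homozygous cells. The fold change against wild type was 1.26 ± 0.51 (SE), with an unadjusted edgeR p of 0.043 and an adjusted p of 0.9998, and 39 pseudogenes carry its name. BNIP3L, the related mitophagy receptor NIX, had the same order of libraries in a narrower range, from 58.3 CPM in hemizygous 1 to 106.0 CPM in homozygous 1.

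ANKRD37, an ankyrin repeat protein known chiefly as a HIF target, was detected at a low level with 18 to 111 counts per library. It had 0.52 and 0.69 CPM in wild type, 0.47 and 1.35 CPM in hemizygous, and 2.45 and 1.11 CPM in homozygous 1 and 2. Homozygous 1 was the highest, but hemizygous 2 was above homozygous 2, and 35.2% of its exon bases are shared with UFSP2. Its fold change against wild type was the largest of the members, 1.56 ± 0.60 (SE), with an unadjusted edgeR p of 0.037.

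KDM3A, a histone H3 lysine demethylase, had 37.5 to 44.2 CPM in 5 libraries and 81.5 CPM in homozygous 1. P4HA1 and P4HA2, the catalytic subunits of collagen prolyl 4-hydroxylase, reached 131.6 and 27.9 CPM in homozygous 1, against 65.7 to 76.8 CPM and 17.3 to 20.4 CPM in the other libraries. VEGFA, the angiogenic growth factor, differed little, with 76.1 CPM in homozygous 1 and 58.6 to 65.7 CPM elsewhere. NDRG1, a stress-inducible protein of the N-myc downstream regulated family, was highest in the hemizygous libraries, at 6.78 and 6.85 CPM, against 4.99 to 5.71 CPM in the others. Its fold change of hemizygous against wild type was 0.41 ± 0.19 (SE), with an unadjusted edgeR p of 0.074.

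ADM ran the other way. This gene encodes adrenomedullin, a secreted vasodilator peptide, and had 31.9 and 16.8 CPM in wild type 1 and 2, 24.4 and 9.20 CPM in hemizygous 1 and 2, and 15.4 and 7.95 CPM in homozygous 1 and 2. Both homozygous libraries lay below both wild-type libraries, and the library numbered 1 was the higher in each genotype. Homozygous was lower than wild type by -1.02 for replicate 1 and by -1.03 for replicate 2 on the log2 scale. The fold change was -1.06 ± 0.55 (SE), with an unadjusted edgeR p of 0.096 and an adjusted p of 0.9998. It ran from -1.61 without homozygous 1 to -0.51 without wild type 1. With the replicate number as a block, edgeR gave -1.06 with an adjusted p of 0.293, and DESeq2 gave -1.07 with an adjusted p of 2.5e-05. In that last analysis, which was chosen after seeing the data, ADM was the only member called, and 0.488% of all genes were called lower.

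**Figure D3:**
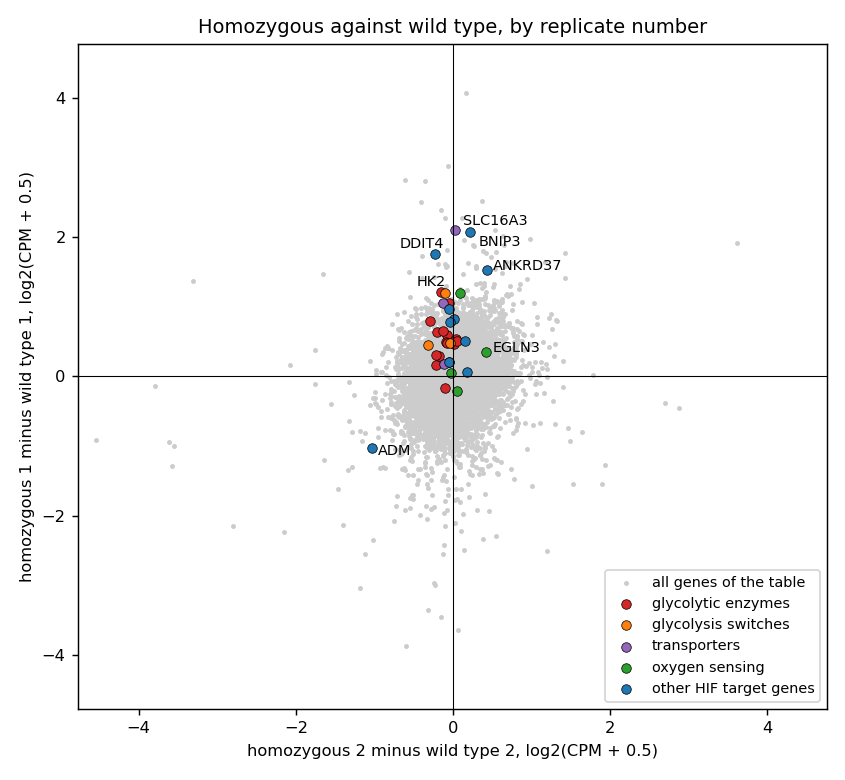
Each point is a gene; the x axis is homozygous 2 minus wild type 2 and the y axis homozygous 1 minus wild type 1, both in log2(CPM + 0.5). Members (coloured by role) stretch upward along the line of no difference in replicate 2, with SLC16A3 at 2.10 and BNIP3 at 2.07 on the y axis, and ADM lies at the lower left, at -1.03 and -1.02; grey points are all genes of the table.

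The roles differed in the gap between the homozygous libraries. Homozygous 1 minus homozygous 2 had a median of 0.29 in the 16 glycolytic enzymes, 1.33 in the 3 switches and 1.57 in the 3 transporters. It was 0.27 in the 4 oxygen sensing genes and 0.89 in the 10 other HIF targets, beside 0.01 over all genes. This gap includes the difference between replicate numbers: median wild type 1 minus wild type 2 was -0.19 in the enzymes and 0.34 in the switches. Homozygous 1 minus wild type 1 had medians of 0.49 in the enzymes and 0.48 in the switches, which were thus alike there. That median was 1.049 in the transporters, 0.20 in the oxygen sensing genes and 0.80 in the other HIF targets. Of the 12 members more than 0.5 above every other library, 3 were enzymes, 1 a switch, 2 transporters, 1 an oxygen sensing gene and 5 other HIF targets. The same number was 0 of 23 for further glycolysis and pentose phosphate genes, 0 of 13 for pyruvate entry genes and 0 of 15 for the HIF machinery. As only 0.284% of all genes reached this distance, a 0 in lists of this size does not set them apart from other genes. Homozygous 1 was the highest library in 8 of 23, 2 of 13 and 3 of 15 of them, beside 14.7% of all genes. The number more than 0.5 above every other library was 4 of 41 for further hypoxia-responsive genes. These were BHLHE40, PPFIA4, FAM162A and INSIG2, of which all but PPFIA4 were named after their values were seen.

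**Figure D4:**
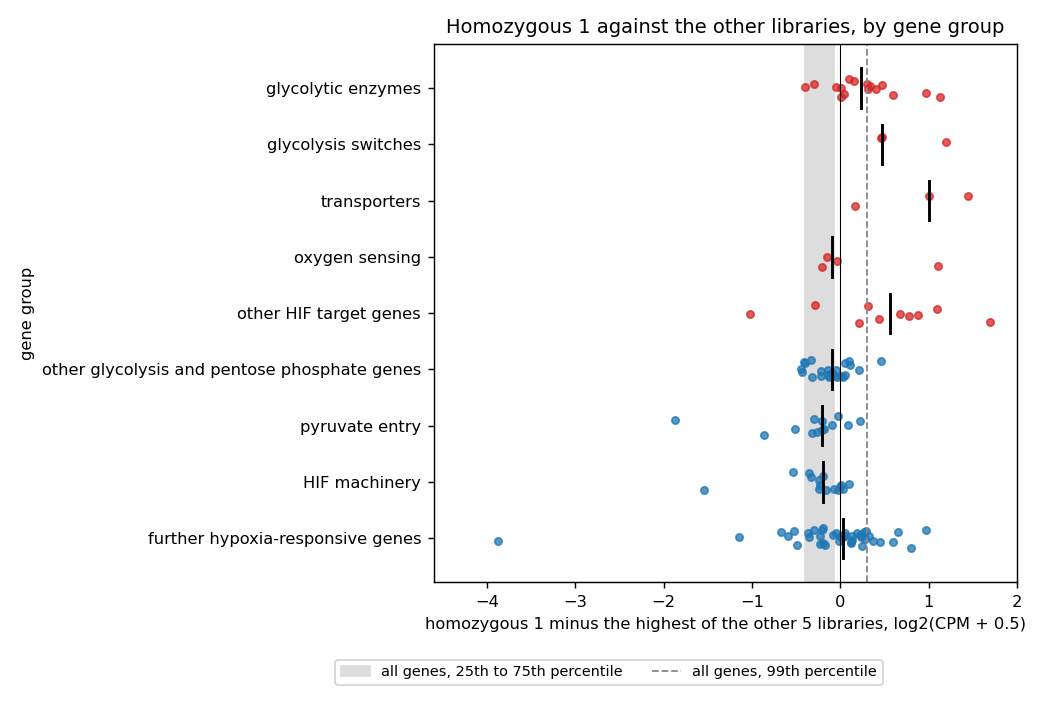
Each point is a gene, placed by homozygous 1 minus the highest of the other 5 libraries on the log2(CPM + 0.5) scale (x axis), in the 5 roles of the members (red) and 4 further gene lists (blue); black lines are medians. The medians are 0.56 for other HIF targets, 0.23 for glycolytic enzymes and -0.10 for further glycolysis and pentose phosphate genes, against -0.22 over all genes, whose middle range is shaded.

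The lists around the members gave the following. In the further hypoxia-responsive list, 5 of 41 measured genes were higher in homozygous than in wild type at an unadjusted edgeR p under 0.05. Over all genes 1.19% were higher in this way. In the list 1 of the 41 was lower, beside 1.5% of all genes. After adjustment 0 passed. Of the 5 higher genes, PPFIA4, FAM162A and INSIG2 had homozygous 1 more than 0.5 above every other library, and the rest did not. PPFIA4, a liprin family scaffold gene, had 12.6 and 22.7 CPM in wild type and 48.0 and 27.3 CPM in homozygous 1 and 2, with a fold change of 1.09 ± 0.39 (SE). BHLHE40, a transcriptional repressor of the circadian clock, had 20.0 CPM in homozygous 1 and 4.06 CPM in homozygous 2, beside 9.95 and 5.83 CPM in wild type 1 and 2. BHLHE41, its paralog, had 2.27 CPM in homozygous 1 and 0.39 to 1.64 CPM in the other libraries.

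TFRC, the transferrin receptor and a known HIF target, was low in homozygous 1. It had 230 and 242 CPM in wild type 1 and hemizygous 1, 109 CPM in homozygous 1, and 89.3 to 105 CPM in the libraries numbered 2. Homozygous 1 thus lay near the libraries numbered 2.

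Outside the hypoxia list, EPAS1 and PDP1 had that same order. EPAS1, which encodes the alternative HIF alpha subunit HIF2A, had 22.9 and 21.6 CPM in wild type 1 and hemizygous 1, 7.51 CPM in homozygous 1 and 6.55 to 9.18 CPM in the libraries numbered 2. PDP1, the phosphatase that reactivates pyruvate dehydrogenase, had 72.2 and 48.4 CPM in wild type 1 and hemizygous 1, and 17.5 to 21.2 CPM in the other 4 libraries. Among the members ADM came closest to this order, since its 15.4 CPM in homozygous 1 lay within the 7.95 to 16.8 CPM of the libraries numbered 2. The other genes named by the same rule differed less. For ARNT2, an EPAS1 partner, and MPC1, a subunit of the mitochondrial pyruvate carrier, the fold changes of homozygous against wild type were -0.38 ± 0.26 and -0.37 ± 0.31 (SE). Those of PGAM2 (muscle phosphoglycerate mutase), GBE1 (glycogen branching enzyme), PGM2 and FBP1 (fructose bisphosphatase) were 0.50, 0.48, -0.20 and -0.18, and those of PDHB, PDK3, ELOB and RBX1 were 0.24, 0.22, 0.22 and 0.19.

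Genes outside the lists also stood apart in homozygous 1. The 6 with a symbol that exceeded the other libraries by most were GTPBP6, EGR1, FOS, RIMKLA, CEP20 and MRM1. FOS and EGR1, transcription factors of the immediate early response to growth signals and stress, had 18.1 and 17.1 CPM in homozygous 1, against 4.62 to 6.36 CPM and 1.75 to 3.97 CPM in the other 5 libraries. NDUFA4L2, a mitochondrial protein known as a HIF target and named here after its values were seen, had 3.70 CPM in homozygous 1 and 0.37 to 1.48 CPM elsewhere. Mitochondrially encoded genes took 6.59% of counts in homozygous 1 and 6.72% to 7.91% in the others. The part of these measures, and of the cell type markers given above, in the higher level of the members in homozygous 1 was not tested.

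The 250 bases before each RefSeq start of the members (GRCh38.p14) were searched for the HIF core motifs ACGTG and GCGTG on both strands. Overlapping matches were counted separately. Of the 36 members, 31 had an entry, with 58 windows, since some have several starts. SLC2A3, VHL, BNIP3L, VEGFA and NDRG1 had none. At least 1 match was found in 33 of 58 windows (56.9%), in 43.2% of 35116 RefSeq promoters and in 53.9% of those of the genes in the table. Windows of the 12 members furthest above the other libraries held a match in 17 of 20 cases (85.0%), those of all glycolytic enzymes in 17 of 35 (48.6%) and those of the other HIF targets in 7 of 8 (87.5%). The 12 were picked from these same data, at a limit set after their values were seen, and the members include known HIF targets. Their share of 85.0% is thus no test, and a role of HIF was not tested. A gene can give several windows, which can overlap and hold the same match. A match is a run of letters, not a shown binding site.

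Sequences are shown for 4 members with at most 10 bases of annotated GENCODE exon in the window: the member furthest apart (DDIT4), the lactate exporter (SLC16A3), the hexokinase with the most matches (HK2), and EGLN3, in which both homozygous libraries were higher than wild type. The windows are chr10:72273674-72273923 for DDIT4, chr17:82228792-82229041 for SLC16A3 and chr2:74834920-74835169 for HK2, all on the plus strand, and chr14:33951075-33951324 on the minus strand for EGLN3. They are written 5′ to 3′ along the gene, with matches to the motifs in capitals on either strand.
DDIT4: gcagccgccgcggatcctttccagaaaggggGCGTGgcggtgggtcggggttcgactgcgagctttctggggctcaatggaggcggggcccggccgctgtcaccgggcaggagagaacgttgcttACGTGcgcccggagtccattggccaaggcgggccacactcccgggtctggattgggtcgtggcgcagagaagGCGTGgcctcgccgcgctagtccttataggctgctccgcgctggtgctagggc
SLC16A3: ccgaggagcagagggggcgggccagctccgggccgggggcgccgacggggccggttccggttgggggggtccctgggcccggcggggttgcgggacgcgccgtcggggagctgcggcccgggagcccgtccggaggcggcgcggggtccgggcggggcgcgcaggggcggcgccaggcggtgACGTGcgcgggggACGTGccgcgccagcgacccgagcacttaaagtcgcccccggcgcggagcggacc
HK2: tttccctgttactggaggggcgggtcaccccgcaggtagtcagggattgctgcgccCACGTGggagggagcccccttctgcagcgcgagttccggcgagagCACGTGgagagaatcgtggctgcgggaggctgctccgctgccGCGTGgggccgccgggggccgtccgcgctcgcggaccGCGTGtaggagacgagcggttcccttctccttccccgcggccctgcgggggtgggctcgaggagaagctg
EGLN3: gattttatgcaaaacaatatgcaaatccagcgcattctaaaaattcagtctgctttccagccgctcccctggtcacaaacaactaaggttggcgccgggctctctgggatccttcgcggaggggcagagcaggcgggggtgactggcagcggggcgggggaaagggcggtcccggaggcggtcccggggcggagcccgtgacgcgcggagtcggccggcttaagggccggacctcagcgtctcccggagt
DDIT4 has 3 matches, SLC16A3 has 2, HK2 has 6 and EGLN3 has 0 in these windows. For SLC16A3 and HK2, which have 5 and 2 windows, the one shown has the most matches among those within the limit on exon bases, so the display favours matches. The other SLC16A3 window within that limit, chr17:82231982-82232231, has 0, and the remaining SLC16A3 windows have 0, 3 and 1 and that of HK2 has 3. The absence of a match says only that these letters are not in this window.

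In GENCODE release 29 (GRCh38) the members that the results turn on lie at chr10:72273920-72276036 (DDIT4, plus strand), chr17:82228397-82261129 (SLC16A3, plus), chr10:131966455-131982013 (BNIP3, minus), chr2:74833981-74893359 (HK2, plus), chrX:77910739-78129296 (PGK1, plus), chr1:42925375-42959176 (SLC2A1, minus) and chr11:10304680-10307397 (ADM, plus). All are protein-coding genes.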

How the data were processed

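RNA was sequenced from 6 libraries, 2 for each of 3 genotypes, made from total RNA with an unstranded TruSeq v2 kit, per the labels' protocols. Reads were trimmed with cutadapt and aligned to hg38 with HISAT2, as the submitters' processing notes list. Not given in the sources used here: tool versions, the counting program and its annotation. In the authors' table the values are whole-number read counts, not normalized. Every gene has over 0.5 CPM in at least 3 libraries, so genes low in most libraries are not analysed here.

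Genotypes were compared with edgeR 4.0.16 in R 4.3.3 on all 6 libraries: TMM scaling, filterByExpr (which removed 0 genes), the quasi-likelihood test with 3 residual degrees of freedom, and Benjamini-Hochberg adjustment over all 16199 genes. The SE is the fold change divided by the square root of F. Differences between single libraries used a pseudocount of 0.5 CPM. With groups of 2 and no molecular identifiers, counting error is a lower limit on the error. Alternatives were RLE and upper-quartile scaling, filters, DESeq2 1.42.0, limma-voom 3.58.1, only 2 genotypes in the fit, a block for the replicate number, leaving out each library, and, added after seeing the data, DESeq2 with the block. Only the main edgeR fit, for homozygous against wild type, was tried on simulated data. The simulation held no difference shared by same-numbered libraries, and the alternatives were not tried on it.

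The titles number the replicates without saying what a number stands for. Deviations from the genotype means ran together in same-numbered libraries, with correlations across genes of 0.769 (wild type and hemizygous), 0.38 (wild type and homozygous) and 0.506 (hemizygous and homozygous), which meets the limit of 0.1 set for pairs. The printed fold changes, SEs and p-values come from the fit without the block, and the block is an alternative. The printed SEs and p-values thus count the difference shared by same-numbered libraries as spread. Chi-square per degree of freedom between the libraries of a genotype was 41.7 to 90.3, so no library is a copy of another.

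Members, roles, further lists and cell type markers were chosen with earlier results of these data known. All members in the table are named. From each of 4 further lists at most 2 genes with the largest rise and 2 with the largest fall (mean CPM of at least 1) are named, and outside the lists 6 genes with homozygous 1 furthest above the others. A gene that this rule takes is not reported here. Positions and exon lengths come from GENCODE release 29 and upstream sequences from RefSeq. Python 3.11.15, pandas 2.3.3 and matplotlib 3.10.9 were used.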

Additional observations from a re-analysis of the deposited data

How the results depend on the processing

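With 2 libraries a genotype and 3 residual degrees of freedom, the 0 calls of edgeR beside 141, 435 and 124 genes at an unadjusted p under 0.05 (hemizygous against wild type, homozygous against wild type, homozygous against hemizygous) do not show that values were equal. With the replicate block edgeR called 1, 0 and 1 genes, DESeq2 called 7, 10 and 10, and DESeq2 with the replicate block called 23, 126 and 24. Leaving out each library in turn gave 0 to 2, 0 to 1 and 0 to 3. No member was among the calls of any edgeR or limma-voom fit, and the cause of the differences between tools was not tested. Apart from ADM, called by DESeq2 with the block as given above, the block changed the call of no member.

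The median fold change of glycolytic enzymes ran from -0.042 (without homozygous 1) to 0.41 in homozygous against wild type and from 0.055 (without homozygous 1) to 0.40 in homozygous against hemizygous when each library was left out. For the other HIF targets it ran from 0.011 (without homozygous 1) to 0.75 (without homozygous 2) and from -0.062 (without homozygous 1) to 0.69 (without homozygous 2). Scaling, filters, tests and the block left these 4 medians between 0.23 and 0.26, 0.24 and 0.28, 0.40 and 0.46, and 0.34 and 0.40. Of 540 member values of homozygous against wild type under the alternatives, 492 moved by less than 1 SD of the replicates and 48 by more, 24 of these from leaving out homozygous 1. The sign was less stable: in 21 of 36 members the fold change took both signs when each library was left out in turn. No scaling moved the median of all genes by more than 0.03 on the log2 scale. Members under 10 CPM (ANKRD37, EGLN1 and NDRG1) are the ones that depth limits most.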

Other observations

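EGFR, the epidermal growth factor receptor and a gene of the further hypoxia-responsive list, was named after its values were seen because its libraries did not follow homozygous 1. It had 10.6 and 10.5 CPM in wild type 1 and 2, 10.4 and 9.26 CPM in hemizygous 1 and 2, and 6.90 and 6.87 CPM in homozygous 1 and 2. Both homozygous libraries lay below the other 4, with a fold change of -0.62 ± 0.18 (SE) against wild type and an unadjusted edgeR p of 0.011, which did not pass after adjustment over all genes.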
